A study of Homo sapiens with 6 samples.

Results

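SCAN-domain zinc finger genes were read on 6 Affymetrix arrays of total RNA from HCT116-labelled cells, HCT116 being a line from a human colorectal carcinoma. The members were taken by gene symbol: every gene whose symbol starts with ZSCAN or ZKSCAN, and 19 further genes named one by one, with pseudogenes left out. This gave 44 genes of the 18132 measured, all of them protein-coding. ZKSCAN8P1 was left out as a pseudogene, and no probe set carries the symbol ZNF498. The family itself was selected on the CSF3 minus Ctrl differences of these same arrays, so all its differences below are a description and stand as no test of the family. The study set 3 arrays labelled CSF3 against 3 labelled Ctrl, both grown in serum-containing medium with antibiotics. CSF3 encodes granulocyte colony-stimulating factor, and how its level was altered, as added protein or through a construct, is not in the labels. Nor do they say whether the 3 samples of a group were separate cultures, so the errors and p-values cover the scatter of these samples alone, and that scatter may be technical. In such bulk RNA, fewer cells of a kind and less RNA per cell cannot be told apart.

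The SCAN domain is a short, leucine-rich protein module through which these proteins pair with themselves and with chosen other SCAN proteins. Most members also carry an array of C2H2 zinc fingers that binds DNA. Some, the ZKSCAN genes among them, add a KRAB domain, which recruits the corepressor TRIM28 and through it chromatin-silencing enzymes. In human the genes lie mostly in groups of neighbours that arose by duplication.

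Several facts of the whole array set bear on these values. Markers of colorectal epithelium fixed for the check were partly at low signal: the Ctrl arrays read 3.63 for EPCAM, 2.20 for CDH1, 2.61 for KRT19, 1.43 for VIL1 and 2.61 for CEACAM5 (means of deposited log2 signals), all under the signal of the median gene at 4.46, whereas KRT8 and KRT18 read 6.37 and 7.26. VIM and ZEB1, mesenchymal genes looked up after these values were seen, read 8.38 and 8.90. Signals of different probe sets are not comparable levels and no detection calls were used, so these values do not settle the identity of the cells, which are called by their label only. Between the groups, KRT8, VIM and ZEB1 changed by -1.32, -0.91 and -1.17. Among the other epithelial markers, KRT18, KRT19, CEACAM5, CDH1 and VIL1 changed by 0.22, 0.47, 0.62, 0.04 and 0.28, and EPCAM by -0.33. All 8 markers of blood, stromal and endothelial cells read below the median gene on the Ctrl arrays, from 1.42 for PTPRC to 3.85 for VWF, and each had a higher mean in the CSF3 group, COL1A2 by the most (0.95). The part of these markers in the changes of the SCAN genes was not tested. CSF3 itself went from 4.83 ± 0.30 in the Ctrl group to 5.96 ± 0.04 in the CSF3 group (SD, n = 3). The groups also differed in array controls: the gap between the 3' and 5' probe sets of GAPDH, used to follow RNA quality, was 0.31 on Ctrl and 0.68 on CSF3 arrays. These controls, an identifier prefix in the sample descriptions and the treatment all differ together between the groups and cannot be told apart.

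Of the 44 SCAN genes, 23 rose, 10 fell and 11 did not pass the threshold on the CSF3 arrays, by a limma fit over all genes at a Benjamini-Hochberg adjusted p under 0.05. Rises made up 52.3% of the members and 45.4% of all genes, and falls 22.7% and 27.1%. No conclusion about the family is drawn from these shares, since it was picked with the contrast known. The median change of the members was 0.25 on the log2 scale, and that of all genes 0.16. With all probe sets of a gene averaged the medians were 0.144 and 0.146. On the brightest probe set 3 members, ZKSCAN1, ZSCAN29 and ZSCAN30, fell by at least 1 on the log2 scale, or 6.82% of members against 3.37% of all genes. With all probe sets of a gene averaged none of them reached that size: ZKSCAN1 was at -0.90, ZSCAN29 at -0.81, and ZSCAN30 at -0.03 with its call lost. None rose that far, the largest rise being 0.82, against 0.645% of all genes.

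**Figure D1:**
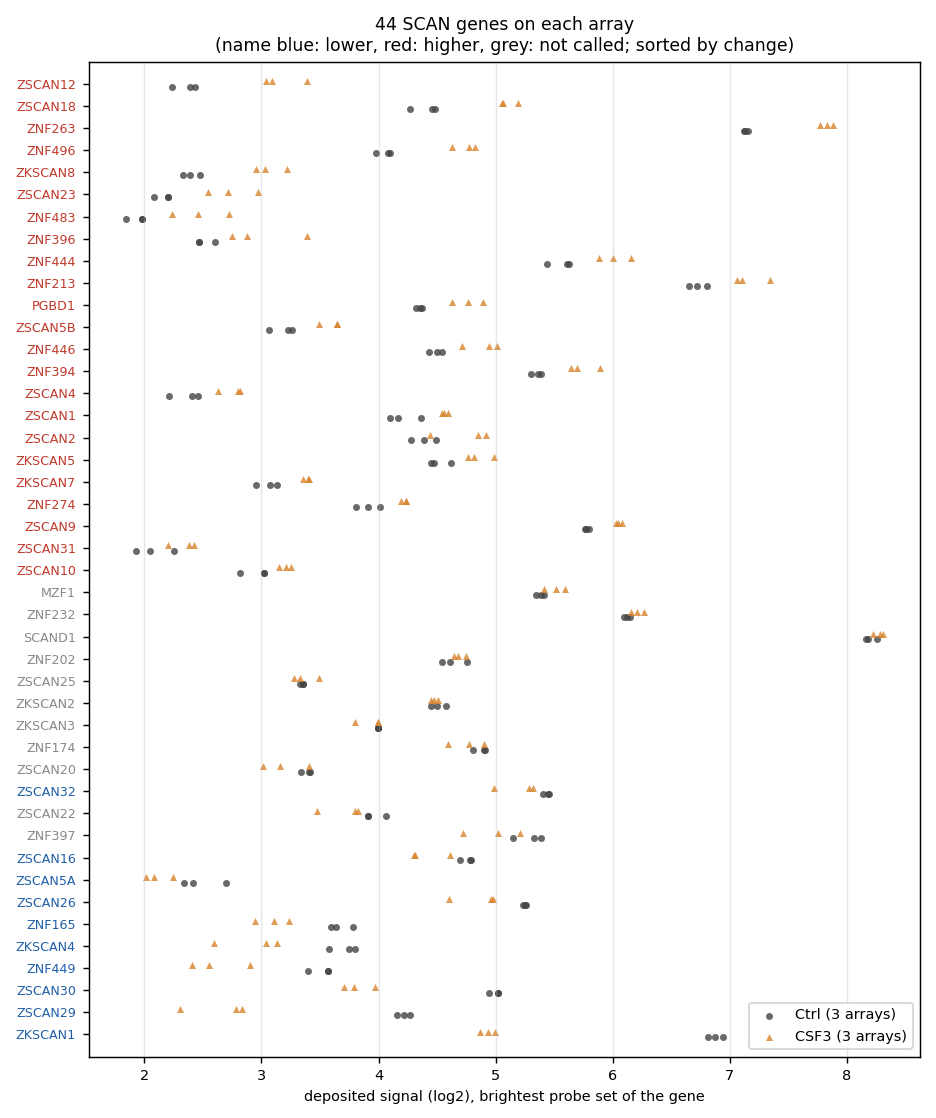
Deposited log2 signal (x axis) of the brightest probe set of each of the 44 SCAN genes (y axis, sorted by change) on the 3 Ctrl arrays (dark circles) and the 3 CSF3 arrays (orange triangles). ZKSCAN1 sits at 6.81 to 6.94 on the Ctrl arrays and 4.87 to 4.995 on the CSF3 arrays, the widest separation in the family.

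Among the 7 genes with both a KRAB and a SCAN domain in their name, 3 rose, 2 fell and 2 did not pass. ZKSCAN1, whose gene is also the source of a well-known circular RNA, had the largest fall of the family. It read 6.94, 6.81 and 6.87 on the Ctrl arrays and 4.995, 4.94 and 4.87 on the CSF3 arrays. The groups were far apart and tight within, with a change of -1.94 ± 0.06 (SE), a 3.85-fold lower signal if the deposited values are log2. ZKSCAN1 has 7 probe sets, and the 4 brightest of them fell, by 1.94, 1.81, 1.60 and 0.96. The other 3, with Ctrl signals of 2.91, 1.34 and 1.36, changed by -0.12, 0.08 and 0.04 and did not pass. Which transcripts of the gene each probe set reads, the circular RNA included, is not given in the sources used here.

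ZKSCAN4, a neighbour and close relative of ZKSCAN3, read 3.75, 3.80 and 3.58 on the Ctrl arrays and 3.14, 3.04 and 2.60 on the CSF3 arrays. It fell by 0.78 ± 0.14 on its only probe set, and CSF3 replicate 3 was the lowest. ZKSCAN8 moved the other way, from 2.39, 2.33 and 2.48 to 2.95, 3.22 and 3.03, a rise of 0.67 ± 0.08 at low signal. Its 4 probe sets disagreed, since 2 rose and 1 fell by 0.54. ZKSCAN7 and ZKSCAN5 rose by 0.34 ± 0.06 and 0.34 ± 0.08, and for ZKSCAN5 another 2 of its 6 probe sets fell. With all probe sets averaged, ZKSCAN5 showed no rise (-0.0040).

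ZKSCAN3, described as a repressor of autophagy and lysosome genes, showed no change that passed. It read the identical value of 3.99927 on each Ctrl array and on CSF3 replicates 1 and 3, and 3.80 on CSF3 replicate 2. Why these values are identical was not tested, and with a Ctrl SD of 0 they cannot show a steady level. Only CSF3 replicate 2 lay apart, and the change of -0.07 ± 0.07 did not pass. Its second probe set gave -0.15 ± 0.11. ZKSCAN2 changed by -0.03 ± 0.06, which did not pass either.

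The 19 ZSCAN genes, which pair the SCAN domain with zinc fingers, were split into 10 that rose, 6 that fell and 3 that did not pass. ZSCAN29 had the second largest fall of the family, from 4.27, 4.22 and 4.16 to 2.84, 2.31 and 2.78. The Ctrl arrays were close together and the CSF3 arrays spread more, and the change was -1.57 ± 0.14. Its other probe set gave -0.06 ± 0.08, so the fall rests on 1 of 2 probe sets. ZSCAN30 read 4.95, 5.02 and 5.02 on the Ctrl arrays and 3.97, 3.79 and 3.71 on the CSF3 arrays, a fall of 1.17 ± 0.08. Its next brightest probe set rose by 0.78 ± 0.12, from 3.68 to 4.46, so the 2 readings of this gene are opposed.

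ZSCAN26 fell on all of its 5 probe sets. The brightest read 5.26, 5.25 and 5.24 on the Ctrl arrays and 4.96, 4.98 and 4.60 on the CSF3 arrays (-0.40 ± 0.10), and the others ranged from -0.31 to -0.94. The call on the brightest probe set was lost after quantile normalization (-0.20). ZSCAN5A, with 1 probe set, fell by 0.37 ± 0.11 at low signal, from 2.42, 2.34 and 2.70 to 2.24, 2.08 and 2.01. ZSCAN16 and ZSCAN32 fell by 0.35 ± 0.09 and 0.24 ± 0.09, calls that were lost after quantile normalization as well (-0.20 and -0.0071). ZSCAN16 also lost its call with probe sets averaged (-0.01). ZSCAN32 lost it with the replicate number as a block, and without any 1 Ctrl array or CSF3 replicate 2 (-0.25 to -0.13). All 4 probe sets of ZSCAN32 were below 0, however, and the next brightest fell by 0.85 ± 0.06, from 5.46 to 4.61. With probe sets averaged ZSCAN32 kept its call (-0.35).

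ZSCAN12 had the largest rise of the family. It read 2.24, 2.39 and 2.43 on the Ctrl arrays and 3.04, 3.09 and 3.39 on the CSF3 arrays, a change of 0.82 ± 0.10. The groups did not overlap, yet all 6 values lay below the median gene, and its 3 probe sets ran from -0.16 to 0.82. ZSCAN18, a gene often methylated in gastrointestinal tumours, rose from 4.27, 4.48 and 4.46 to 5.06, 5.05 and 5.19 (0.70 ± 0.08). All 5 of its probe sets pointed up, by 0.19 to 0.70, and 4 of them were called. ZSCAN23 rose by 0.58 ± 0.11, from 2.20, 2.20 and 2.08 to 2.54, 2.97 and 2.72, with its second probe set at 0.24.

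A pair of ZSCAN genes are linked to early embryonic cells. ZSCAN4, which acts in telomere maintenance of embryonic stem cells, went from 2.36 ± 0.13 to 2.75 ± 0.10 (SD, n = 3), and ZSCAN10, a pluripotency factor, from 2.96 ± 0.12 to 3.20 ± 0.05. Both passed as deposited and neither did after quantile normalization, and ZSCAN10 also lost its call without Ctrl replicate 1 (0.18). ZSCAN1, ZSCAN2, ZSCAN5B, ZSCAN9 and ZSCAN31 rose by 0.26 to 0.41. In ZSCAN2 and ZSCAN31 the groups overlapped in spite of the call. ZSCAN31 was at 0.03 after quantile normalization, with no call, and lost its call without Ctrl replicate 1 or 3 or CSF3 replicate 2 or 3 (0.18 to 0.25). ZSCAN2 was at 0.02 with its 7 probe sets averaged, with no call, and kept its call only when the array left out was CSF3 replicate 1 (0.26 to 0.40 without the others). ZSCAN20, ZSCAN22 and ZSCAN25, at -0.19, -0.26 and 0.02, did not pass. ZSCAN22 passed with the replicate number as a block, and without CSF3 replicate 1 or 3 (-0.31 and -0.33). ZSCAN20 passed as a fall without CSF3 replicate 1 (-0.30), while its other 2 probe sets were both called higher (0.40 and 0.25).

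Of the 16 members named ZNF or MZF1, 9 rose, 2 fell and 5 did not pass. ZNF263, a KRAB and SCAN protein that binds long GA-rich DNA stretches, rose on every probe set. It read 7.12, 7.16 and 7.13 on the Ctrl arrays and 7.88, 7.77 and 7.83 on the CSF3 arrays, so each group spanned little and they lay far apart (0.69 ± 0.05). Its 4 probe sets gave 0.30 to 0.72. ZNF496 rose from 4.08, 3.98 and 4.10 to 4.63, 4.83 and 4.77 (0.69 ± 0.07), while its other 2 probe sets, at 0.16 and 0.24, were not called.

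ZNF213 and ZNF394 were other genes whose probe sets kept 1 direction. ZNF213 went from 6.81, 6.65 and 6.72 to 7.06, 7.10 and 7.34 (0.44 ± 0.09), with all 8 of its probe sets above 0 and 5 called. ZNF394 rose by 0.39 ± 0.08, and its 4 probe sets were all called, at 0.38 to 0.80. ZNF444 rose from 5.44, 5.61 and 5.63 to 5.88, 6.15 and 5.998 (0.45 ± 0.09), with 0.32 on the other probe set. ZNF274, which brings the histone methyltransferase SETDB1 to zinc finger gene clusters, read 3.81, 3.91 and 4.01 and then 4.23, 4.23 and 4.19. It rose by 0.31 ± 0.07, and its 4 probe sets ranged from 0.17 to 0.42.

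ZNF396 and ZNF483 rose at low signal. ZNF396 read 2.47, 2.61 and 2.47 on the Ctrl arrays and 3.39, 2.88 and 2.75 on the CSF3 arrays (0.49 ± 0.16), where CSF3 replicate 1 stood above the other two. ZNF483 read 1.85, 1.98 and 1.98 and then 2.45, 2.24 and 2.73 (0.54 ± 0.12). Both calls were lost after quantile normalization (0.31 and 0.31), and that of ZNF396 without Ctrl replicate 1 or 3 as well (0.47 and 0.47). ZNF446 rose by 0.40 ± 0.08 on its single probe set.

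The falls among these genes were ZNF449 and ZNF165. ZNF449 went from 3.57, 3.39 and 3.57 to 2.90, 2.56 and 2.41 (-0.89 ± 0.13), while its other, dimmer probe set gave 0.09. ZNF165, a cancer-testis gene, went from 3.78, 3.59 and 3.64 to 3.24, 3.11 and 2.94 on its only probe set (-0.58 ± 0.09). MZF1, the myeloid zinc finger gene, read 5.39, 5.34 and 5.41 and then 5.41, 5.59 and 5.52. Its groups overlapped and 0.12 ± 0.06 did not pass, although its 2 other probe sets rose by 0.32 and 0.44. After quantile normalization the brightest one also passed, at 0.36, as it did without CSF3 replicate 1 (0.17). ZNF232, ZNF202, ZNF174 and ZNF397, at 0.09, 0.06, -0.12 and -0.30, did not pass. ZNF232 and ZNF202 passed as rises after quantile normalization (0.35 and 0.21). With probe sets averaged ZNF232 passed as a fall instead (-0.16), so its direction depends on the processing. ZNF397 passed with the replicate number as a block, with the eBayes trend and robust options, and without CSF3 replicate 2 (-0.42).

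Both members without zinc fingers of the C2H2 kind differed in outcome. SCAND1, which is little more than a SCAN domain and can pair with the longer proteins, read 8.16, 8.18 and 8.26 on the Ctrl arrays and 8.22, 8.28 and 8.30 on the CSF3 arrays. The groups overlapped, and 0.07 ± 0.05 did not pass, whereas after quantile normalization 0.23 did. PGBD1, a SCAN protein fused to a domesticated piggyBac transposase, rose from 4.38, 4.36 and 4.32 to 4.90, 4.62 and 4.77 (0.41 ± 0.08). Its second probe set was at -0.17 and was not called, and with both averaged the call was lost (0.12).

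Probe sets of 1 gene often differed. The 44 genes have 138 single-gene probe sets, of which 57 were higher, 24 lower and 57 not called, in a fit over all 44988 single-gene probe sets, of which 36.7% were higher and 28.8% lower. Of the 37 genes with several, 20 had all probe sets on 1 side of 0. In 6 genes, ZKSCAN5, ZKSCAN8, ZNF202, ZNF232, ZSCAN2 and ZSCAN30, called probe sets pointed both ways. The genes with at least 4 probe sets, all called in the same direction, were ZNF263 and ZNF394 upward and ZSCAN26 downward.

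**Figure D2:**
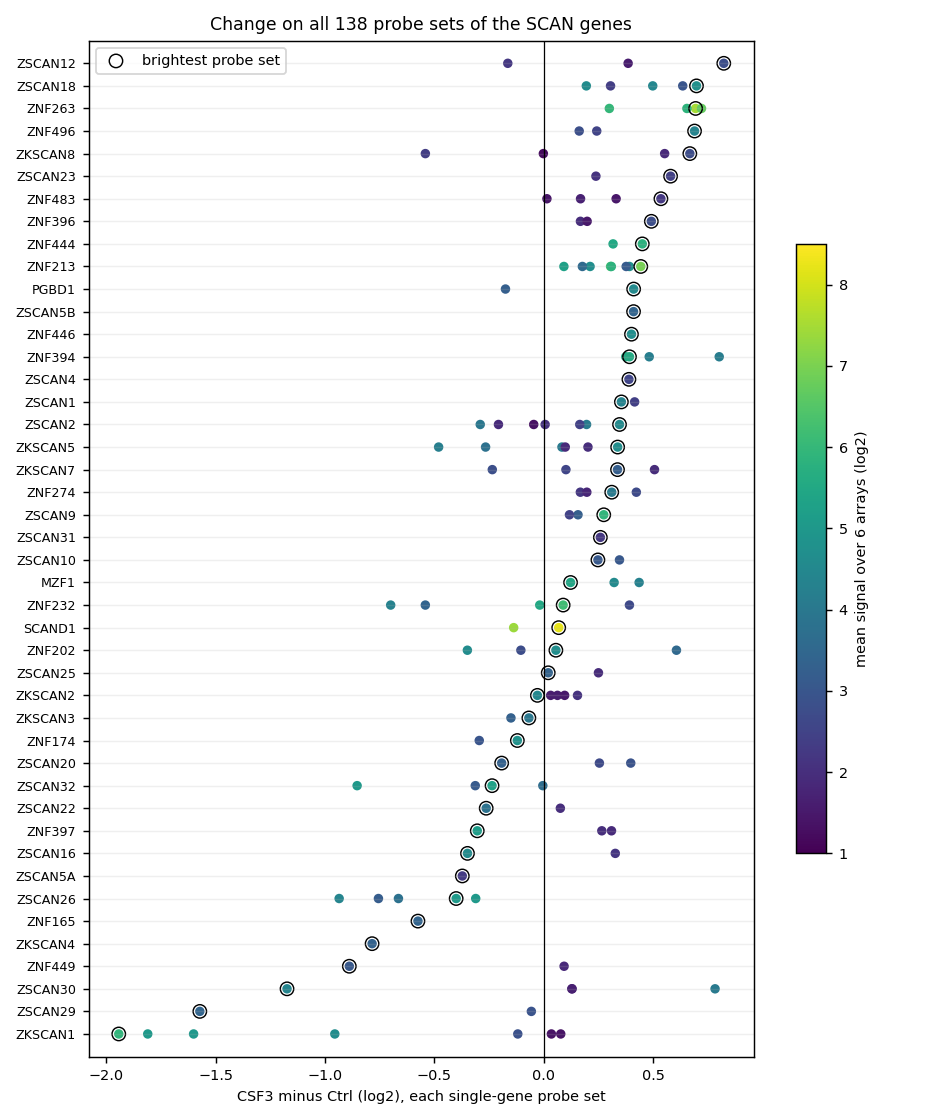
CSF3 minus Ctrl in log2 units (x axis) for each of the 138 probe sets of the 44 SCAN genes (y axis), coloured by mean signal; rings mark the brightest probe set of each gene. ZNF263 holds together between 0.30 and 0.72, whereas ZSCAN30 runs from -1.17 to 0.78.

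Signal level and change were related on these arrays, so each member was also set beside genes of like level. Across all genes the median change was 0.32 among the dimmest, 0.18 among the middle and -0.16 among the brightest genes, each class holding 6044. Of the 10 dim members 8 rose and 2 fell, where 65.8% of all dim genes rose and 2.83% fell. Of the 27 in the middle 11 rose and 7 fell, beside 47.5% and 27.9% of all such genes. Of the 7 bright members 4 rose and 1 fell, beside 22.8% and 50.7%. With all genes cut into 20 bins of level, 30 members lay between the 10th and the 90th percentile of change of their bin. Those below were ZKSCAN1, ZSCAN29, ZSCAN30, ZNF449, ZKSCAN4, ZNF165, ZSCAN5A and ZSCAN20. Those above were ZSCAN12, ZSCAN18, ZNF263, ZNF496, ZNF444 and ZNF213.

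**Figure D3:**
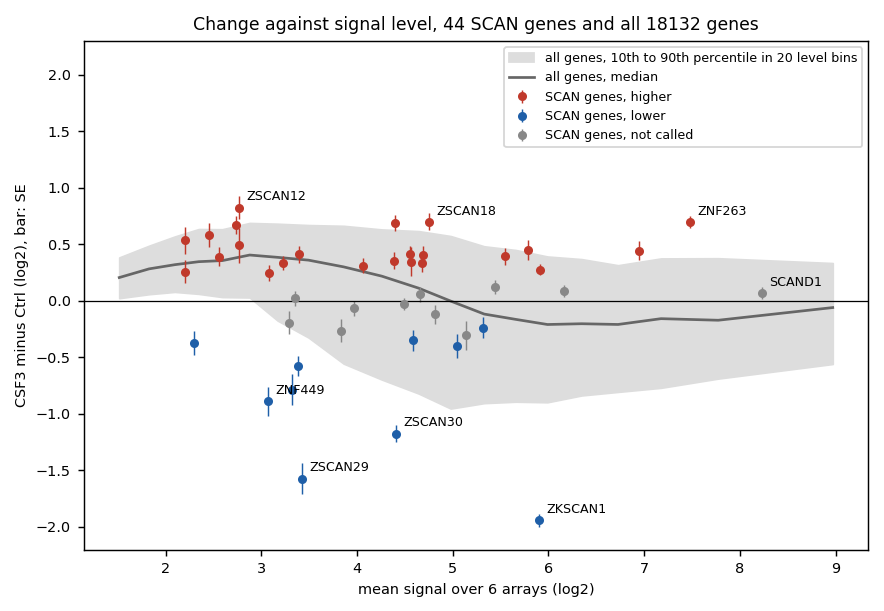
CSF3 minus Ctrl (y axis, log2, bars are standard errors) against mean signal over the 6 arrays (x axis, log2) for the 44 SCAN genes, over the median (line) and the 10th to 90th percentile (grey) of all genes in 20 bins. ZKSCAN1, ZSCAN29 and ZSCAN30 lie far under the grey band, and ZNF263 lies above it in a bin whose median was -0.17.

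The CSF3 arrays scattered more than the Ctrl arrays. The median SD of the members was 0.075 over the Ctrl and 0.131 over the CSF3 arrays, against 0.061 and 0.103 for all genes. The CSF3 arrays were the more variable ones for 32 of 44 members (72.7%) and for 73.2% of all genes. CSF3 replicate 3 was the lowest of its group for 20 members and CSF3 replicate 1 the highest for 21.

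Neighbouring SCAN genes held both pairs that moved together and pairs that moved apart. By the RefSeq annotation, 33 members lie in 6 groups of 3 or more on chromosomes 6, 7, 16, 18 and 19. The largest group, of 11 genes on chromosome 6, held 6 that rose, 4 that fell and ZKSCAN3, which did not pass. Along it, ZNF165 and ZSCAN16 fell, ZKSCAN8 and ZSCAN9 rose, ZKSCAN4 and ZSCAN26 fell, and PGBD1 and ZSCAN31 rose, followed by ZKSCAN3 and the rising ZSCAN12 and ZSCAN23. This order holds only for the brightest probe sets as deposited. ZSCAN16, ZSCAN26 and ZSCAN31 had no call after quantile normalization, nor had ZSCAN16 and PGBD1 with probe sets averaged. On chromosome 7, ZNF394 and ZKSCAN5 rose and ZKSCAN1 fell. The group of 7 on chromosome 19 that runs from ZSCAN4 to MZF1 held 5 rises and no call in the lower direction. ZSCAN4 had no call after quantile normalization (0.19). Beside these group counts, 45.4% of all genes rose and 27.1% fell, and no group was tested against these shares. Of the 27 pairs of adjacent members, 18 had both genes called, 12 of them (66.7%) in the same and 6 in opposite directions. Among all measured genes directly next to each other, 58.3% of 9103 pairs with both called went the same way. Pairs of members can have other genes between them, so these shares do not measure like pairs.

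**Figure D4:**
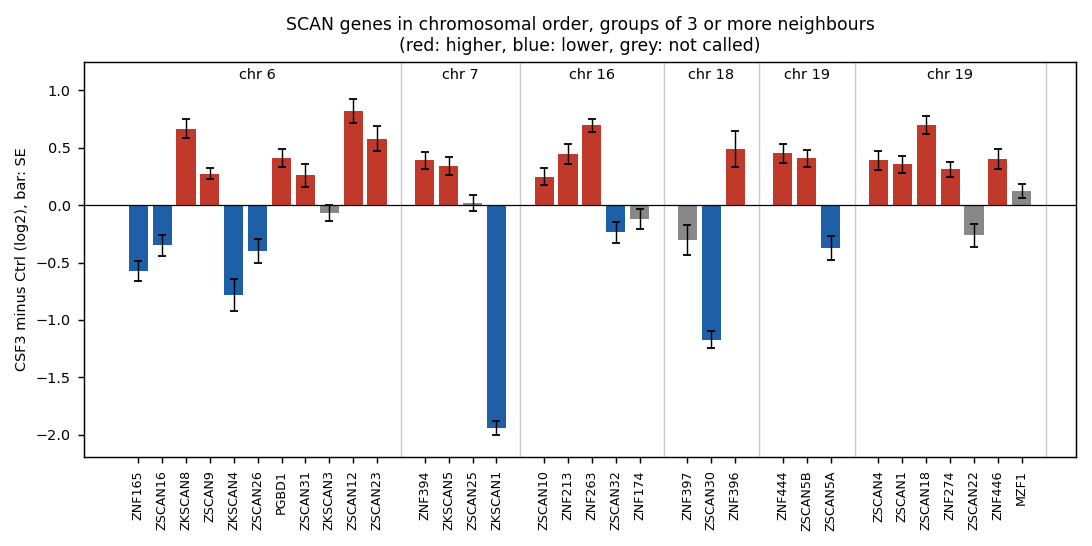
CSF3 minus Ctrl (y axis, log2, bars are standard errors) for the 33 SCAN genes that lie in groups of 3 or more, in chromosomal order (x axis, equal spacing, not to distance). On chromosome 6 rises (red) and falls (blue) come in runs of 2 up to ZSCAN26, with no fall called after it. Calls are those of the brightest probe sets as deposited, and the calls of ZSCAN16, ZSCAN26 and ZSCAN31 were lost after quantile normalization. On chromosome 7 ZKSCAN1 at -1.94 stands beside ZSCAN25 at 0.02.

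Promoter sequences, which the choice of members did not use, are shown for the 2 largest falls, the largest rise and ZNF263, as 300 bases from 250 before to 50 after the RefSeq start (GRCh38.p14), 5′ to 3′ on the gene's strand. Capitals mark matches, on either strand, to the GC box (GGGCGG), the ETS core (CCGGAAG), the CCAAT box (CCAAT) and the NF-κB consensus. They are ZKSCAN1 at chr7:100015346-100015645 (plus strand), ZSCAN29 at chr15:43370994-43371293 (minus), ZSCAN12 at chr6:28399698-28399997 (minus) and ZNF263 at chr16:3283241-3283540 (plus).
ZKSCAN1: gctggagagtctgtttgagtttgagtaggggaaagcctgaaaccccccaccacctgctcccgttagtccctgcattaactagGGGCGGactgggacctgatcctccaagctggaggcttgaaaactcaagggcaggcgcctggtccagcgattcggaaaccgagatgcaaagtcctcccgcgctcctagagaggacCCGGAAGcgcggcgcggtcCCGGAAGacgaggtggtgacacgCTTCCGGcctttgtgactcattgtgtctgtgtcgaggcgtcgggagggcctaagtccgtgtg
ZSCAN29: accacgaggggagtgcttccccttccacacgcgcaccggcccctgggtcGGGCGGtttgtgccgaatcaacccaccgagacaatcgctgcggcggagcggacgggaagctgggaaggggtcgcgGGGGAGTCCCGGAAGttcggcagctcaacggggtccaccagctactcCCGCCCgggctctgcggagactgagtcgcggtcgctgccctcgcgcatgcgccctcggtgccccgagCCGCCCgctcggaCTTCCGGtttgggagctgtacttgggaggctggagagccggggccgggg
ZSCAN12: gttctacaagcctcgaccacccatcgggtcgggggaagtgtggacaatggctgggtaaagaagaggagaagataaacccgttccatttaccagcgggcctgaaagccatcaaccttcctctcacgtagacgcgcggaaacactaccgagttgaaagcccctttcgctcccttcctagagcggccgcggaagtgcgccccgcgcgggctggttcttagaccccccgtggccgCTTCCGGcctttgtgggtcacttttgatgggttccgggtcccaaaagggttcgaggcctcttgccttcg
ZNF263: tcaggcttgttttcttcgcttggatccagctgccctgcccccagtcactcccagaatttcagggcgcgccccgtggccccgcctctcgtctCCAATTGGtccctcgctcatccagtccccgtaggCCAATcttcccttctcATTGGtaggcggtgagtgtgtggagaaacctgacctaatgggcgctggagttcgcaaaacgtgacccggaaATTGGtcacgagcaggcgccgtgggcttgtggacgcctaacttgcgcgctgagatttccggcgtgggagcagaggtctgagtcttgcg

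The ZKSCAN1 window holds 1 GC box and 3 ETS cores. That of ZSCAN29 holds 3 GC boxes, 2 ETS cores and 1 NF-κB match, which overlaps an ETS core. The ZSCAN12 window has 1 ETS core, and that of ZNF263 has 5 CCAAT matches, a pair of them overlapping on opposite strands, with neither of the other motifs. Over the 37 members with an entry, the ETS core was found in 17 (45.9%), against 39.3% of 420 other ZNF promoters, 14.2% of 15842 protein-coding promoters and 10.7% of all 27305. It stood in 7 of 21 members that rose, 3 of 6 that fell and 7 of 10 not called. The GC box was in 59.5% of members, 63.8% of other ZNF promoters and 58.5% of protein-coding promoters. It stood in 10 of 21 members that rose, 6 of 6 that fell and 6 of 10 not called. Only 6 of the 10 members that fell have an entry, so the others could not be looked at. NF-κB matches were in 3 members, ZKSCAN5, ZSCAN29 and ZSCAN31, or 8.11%, against 6.36% of protein-coding promoters. The members' promoters had a median GC content of 63.7% and 24 CpG, against 62.7% and 22 for protein-coding genes.

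Other SCAN genes outside the list gave a mixed picture too. Of 10 such genes 8 were measured, and 3 rose, 4 fell and 1 did not pass, with a median of -0.30. ZNF24, a short SCAN zinc finger gene, fell by 0.94 ± 0.08, and ZNF500 rose by 0.68 ± 0.08. PEG3, an imprinted gene, rose by 0.40 ± 0.06 at low signal and ZNF215 fell by 0.41 ± 0.08. Of the 453 remaining ZNF genes, 38.0% rose and 28.3% fell, with a median of 0.09.

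Of 17 corepressor genes through which KRAB domains act, 2 rose, 10 fell and 5 did not pass as deposited. The list is bright, with 14 genes in the brightest class, and its falls (58.8%) stand beside 50.7% for all genes of that class. TASOR and PPHLN1, of the HUSH silencing complex, fell by 1.08 ± 0.07 and 0.54 ± 0.06, while MPHOSPH8 of the same complex rose by 0.27 ± 0.05. The chromatin remodeller gene ATRX fell by 0.81 ± 0.09, and HDAC1 fell by 0.36 ± 0.05. TRIM28, the direct partner of KRAB, fell by 0.16 ± 0.06, a call lost after quantile normalization (0.0016). SETDB1 changed by -0.10 ± 0.06 and did not pass. After quantile normalization the list held 5 rises and 4 falls, with a median of 0.04 in place of -0.16, so its direction depends on the scaling.

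Of 17 autophagy and lysosome genes linked to ZKSCAN3, among them the opposing activator TFEB, 7 were higher, 8 lower and 2 did not pass, or 9 higher and 6 lower after quantile normalization. As deposited, 41.2% of the list rose and 47.1% fell, beside 45.4% and 27.1% of all genes. In the brightest class, which holds 12 of the list, 22.8% of all genes rose and 50.7% fell. The shares after quantile normalization were 52.94% and 35.29% of the list, beside 39.25% and 20.01% of all genes. The members with the smallest p were CTSB, which encodes a cathepsin (-0.82 ± 0.05), the autophagosome genes GABARAPL2 (0.50 ± 0.05) and MAP1LC3B (0.46 ± 0.05), and PRKAA1, a subunit of the energy sensor AMPK (0.59 ± 0.07). ZKSCAN3 itself changed by -0.07 on the same arrays, a reading limited by its identical Ctrl values.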

How the data were processed

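Per the labels, total RNA of 6 samples was read on Affymetrix arrays, and signals of 49395 probe sets were deposited. Their range fits a log2 scale, which is how the values deposited by the authors were taken. Neither the base nor the background correction, summarisation or normalization is given in the sources used here. Of the probe sets, 44988 have 1 gene in the platform annotation, 1832 several, 2473 none and 102 are array controls; only the first were used. The brightest probe set stood for its gene, with no filter on low values. CSF3 minus Ctrl was fitted over all 18132 genes with lmFit and eBayes of limma 3.58.1 (R 4.3.3), 3 against 3 arrays, Benjamini-Hochberg adjusted p threshold 0.05; changes are log2 differences ± SE. The fit was tested on simulated data. The number of arrays limits the precision, and signals of different probe sets are not comparable levels.

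The members and lists were chosen with earlier results of these data known. Given in full are ZKSCAN1, ZKSCAN3, SCAND1, ZNF263, ZNF274, MZF1 and PGBD1. So are the 8 largest rises and 8 largest falls among called members whose groups do not overlap. From each further list the 4 genes with the smallest p are given. TRIM28, SETDB1 and MPHOSPH8 were added after their values were seen. Promoters are from RefSeq, GRCh38.p14, with 37 of 44 members matched. Alternatives tried are given in the closing section.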

Additional observations from a re-analysis of the deposited data

Results flagged for a closer look

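Array control probe sets, which the comparisons do not use, read higher on the CSF3 arrays. The median of the hybridisation controls was 8.43 ± 0.05 on the CSF3 and 6.86 ± 0.07 on the Ctrl arrays (SD, n = 3), a difference of 1.56 on the log2 scale. The gap between 3' and 5' probe sets was wider by 0.38 for GAPDH and by 0.60 for ACTB on the CSF3 arrays. The part of these differences in the changes of the SCAN genes was not tested.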

How the results depend on the processing

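Of the 44 SCAN genes, 23 had the same outcome in every alternative run for them. The size threshold given below is not part of this count. Of the 23, 15 were higher (ZNF263, ZSCAN18 and ZSCAN12 among them) and 6 lower, namely ZKSCAN1, ZSCAN29, ZNF449, ZKSCAN4, ZNF165 and ZSCAN5A. ZKSCAN3 and ZKSCAN2 stayed uncalled throughout. Leaving out any 1 array kept the outcome of 35 genes, called or not. Asking for a change of at least 1 left 0 SCAN genes higher and 3 lower, and 117 and 611 of all genes. With the dimmest 30% left out, 16 SCAN genes rose and 10 fell, beside 4767 and 4883 of all genes. The median change was then 0.079 for the SCAN genes and 0.00015 for all genes. With all probe sets of a gene averaged these medians were 0.144 and 0.146. Leaving out 1 array at a time gave medians of the SCAN genes from 0.21 to 0.28. Averaging probe sets reversed ZSCAN20 (0.15), ZNF232 (-0.16) and ZKSCAN5 (-0.0040), took the calls of ZSCAN30 (-0.03), ZSCAN16 (-0.01), ZSCAN2 (0.02) and PGBD1 (0.12), and added ZNF174 (-0.21), ZSCAN25 (0.14) and MZF1 (0.29). The uncalled ZNF397, ZKSCAN2 and SCAND1 changed sign (0.09, 0.06 and -0.03). After quantile normalization 22 members (50%) rose and 7 (15.91%) fell, beside 39.25% and 20.01% of all genes. It took 8 calls of members and added 4, those of ZNF202, SCAND1, ZNF232 and MZF1. The uncalled ZNF174, ZKSCAN2 and ZSCAN25 changed sign under quantile normalization (0.05, 0.11 and -0.07). With array medians subtracted 23 members rose and 11 fell, with ZSCAN22 gained as a fall, beside 8103 and 4936 of all genes. The trend and robust options of eBayes gave 23 rises and 12 falls, with ZNF397 and ZSCAN22 gained, beside 8268 and 5152 among all genes. Same-numbered arrays shared little (r of their deviations 0.04, 0.03 and 0.03, each still the best for its number). The numbers were therefore not taken as pairs. With the replicate number as a block 23 members rose and 11 fell, beside 8086 and 4782 of all genes. ZSCAN32 was lost, ZNF397 and ZSCAN22 were gained as falls, and none reversed. The cause of these shifts was not tested. The deposited values carry no detection calls, so whether a dim member is expressed at all is unknown.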
